A study of Mus musculus with 2 samples.

Results

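The clustered protocadherin genes were described here in open chromatin maps of mouse hippocampus. The members were the protein-coding genes of the GENCODE M21 annotation on chromosome 18 whose symbols start with Pcdha, Pcdhb or Pcdhg. There were 57 of them among 21938 protein-coding genes, with 14 in Pcdha, 22 in Pcdhb and 21 in Pcdhg. Pcdhgb8 carries a symbol of this kind, is annotated as a polymorphic pseudogene and was left out. GENCODE gives the symbol Pcdha11 to 2 records, and the one that starts at 37005203 is called Pcdha10 here, as in RefSeq. All positions are 1-based on chromosome 18 of mm10.

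The measurement was DNase-seq, in which DNase I digests accessible stretches of nuclear DNA and places with many cuts are listed as peaks. There was 1 group of 2 libraries, numbered as biological replicates 1 and 2, and so no contrast. Both came from hippocampus of female B6CASTF1/J mice aged 8 to 10 months, an F1 cross between a laboratory strain and a wild-derived strain, with no treatment given in the labels. The material of each library was pooled from 2 biosamples. Whether the 2 pools hold different animals is not stated in the labels, so a spread between the libraries may be technical. Reads of the cross were placed on the reference assembly, and the effect of strain differences on the calls was not tested.

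Clustered protocadherins are cell surface adhesion molecules that give each neuron a combination of proteins by which its branches recognise and avoid one another. The genes stand in tandem. In Pcdha and Pcdhg each large variable exon has its own promoter and is spliced to constant exons shared by the whole cluster, whereas Pcdhb genes are single exons. A neuron chooses a few of the alternate promoters, in a largely random way, whereas the C-type members (Pcdhac1, Pcdhac2, Pcdhgc3, Pcdhgc4 and Pcdhgc5), which sit at the ends of their clusters, are chosen more uniformly. The insulator protein CTCF and cohesin are known to bind promoters and exons of the clusters and to link them to enhancers that lie downstream of the constant exons. Most of the promoters carry a short conserved sequence element.

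A member was counted as open in a library when a peak of that library's larger peak list overlapped, by at least 1 bp, the 500 bp on either side of a start of its variable exon. Its signal was that of the highest such peak. The signal is the authors' own value for each peak. The sources used here do not give its scale, so it served to describe and rank. Over all peaks of a library its median was 0.600 (replicate 1, 98902 peaks) or 0.580 (replicate 2, 130199 peaks). In tissue made of many cells, fewer cells with an open site and a less open site in each cell cannot be told apart. Promoters of neuronal marker genes were open in both libraries for 7 of 8 genes and those of hippocampal field markers for 8 of 8. For markers of liver and muscle the count was 0 of 5. Astrocyte and oligodendrocyte markers were open at 4 of 5 promoters each, and microglial and endothelial markers at 1 of 5 each. The share over all protein-coding genes was 57.8%. Microglial and endothelial markers had median observed to expected CpG ratios of 0.266 and 0.317, beside 0.552 over all protein-coding genes. The part of these cell types in the results on the members was not tested.

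Most clustered protocadherin promoters lacked a peak shared by both libraries, and the C-type promoters were the exception. Of the 57 members, 11 (19.3%) were open in both libraries, whereas 57.8% of all protein-coding genes were. A peak was present in replicate 1 only at 4 members, in replicate 2 only at 13 and in neither library at 29. Counted library by library, 15 members were open in replicate 1, beside 59% of all genes, and 24 in replicate 2, beside 61%. All 5 C-type members were open in both libraries, and 6 of the other 52 members were. By cluster, 2 of 14 Pcdha, 5 of 22 Pcdhb and 4 of 21 Pcdhg members were open in both. Among the alternate members, those that are not C-type, the counts were 0 of 12 in Pcdha and 1 of 18 in Pcdhg.

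**Figure D1:**
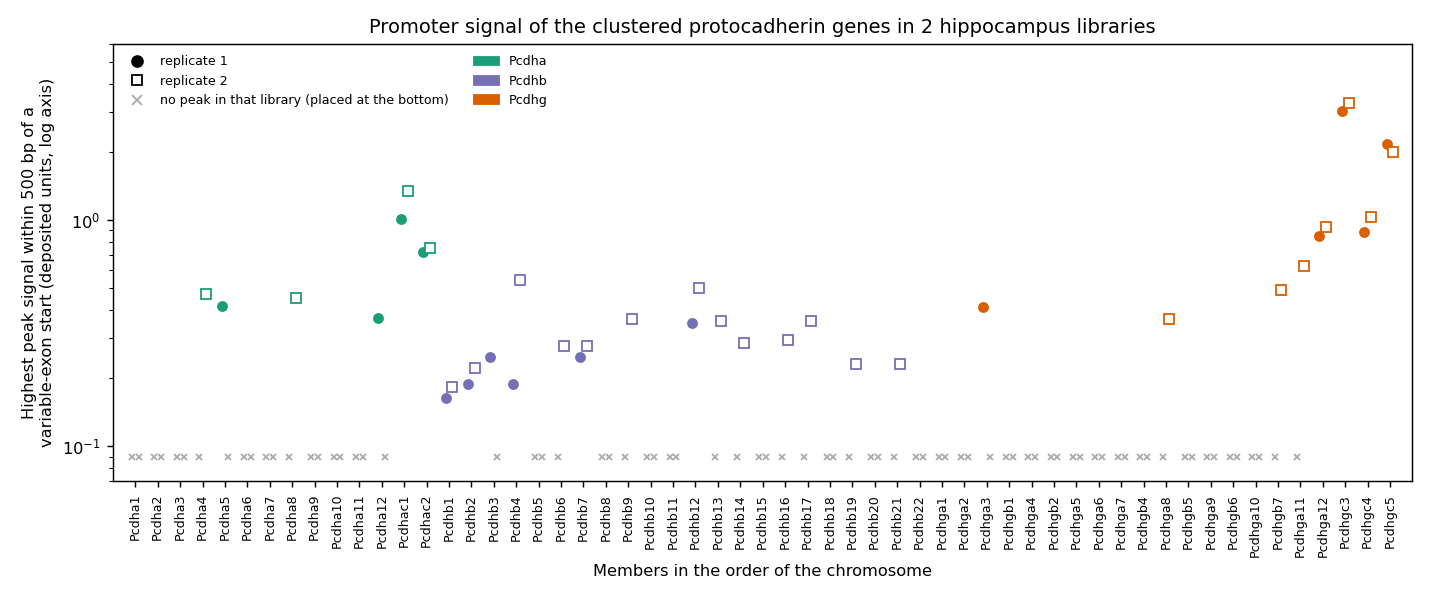
Signal of the highest peak within 500 bp of a variable-exon start (deposited units, log axis) for the 57 members in chromosome order, with filled circles for replicate 1, open squares for replicate 2 and grey crosses at the bottom where a library had no peak. The C-type members at the right end of Pcdha and of Pcdhg had peaks in both libraries, up to 3.03 and 3.28 at Pcdhgc3, and Pcdhb members with peaks stayed between 0.164 and 0.541.

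The 4 highest promoter signals of the clusters belonged to C-type members. Pcdhgc3, whose variable exon starts at 37806410, reached 3.03 (replicate 1) and 3.28 (replicate 2), the highest of all members (mean 3.15 ± 0.17, SD, n = 2). Pcdhgc5, the last variable exon of Pcdhg (start 37819513), had 2.16 and 2.00, a mean of 2.08 ± 0.11 (SD, n = 2). Pcdhgc4, a member needed for the survival of interneurons in mice, starts at 37815079 and had 0.885 and 1.03. In Pcdha, Pcdhac1 (start 37090013) had 1.01 and 1.34, and Pcdhac2 (start 37143503) had 0.721 and 0.755. Among C-type members the order from the top in both libraries was Pcdhgc3, Pcdhgc5, Pcdhac1, Pcdhgc4 and Pcdhac2. The replicate 2 peak of Pcdhgc4 was absent from the stricter peak list. The lowest false discovery rate in its window was 0.035 in that library, against 4.7e-06 at Pcdhac2, so signal and false discovery rate ranked these genes differently. The means of Pcdhac1 (1.17 ± 0.24) and Pcdhgc4 (0.959 ± 0.105; SD, n = 2 each) lay within the spread of Pcdhac1. Among all protein-coding genes open in both libraries, Pcdhgc3 stood at the 63.6th percentile of promoter signal, Pcdhgc5 at the 45.1st and Pcdhac2 at the 11.2th.

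Pcdhga12 was the single alternate member of Pcdha or Pcdhg with a peak in both libraries. It is the last alternate exon before the C-type exons of Pcdhg, with a start at 37765580, and its signal was 0.848 in replicate 1 and 0.930 in replicate 2. That level lay between those of Pcdhac2 and Pcdhgc4. The neighbouring Pcdhga11 and Pcdhgb7 had peaks in replicate 2 only, at 0.628 and 0.493. The pseudogene Pcdhgb8, which lies between Pcdhga11 and Pcdhga12 and is no member, also had a peak in replicate 2 only, at 0.930. Farther from the C-type exons, Pcdhga8 had a peak of 0.366 in replicate 2 and Pcdhga3 one of 0.412 in replicate 1. The other 13 Pcdhg members, all alternate, had none.

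Alternate Pcdha genes had a peak in their window in 1 library at most, and the highest such peaks lay inside the exon. Pcdha5 (0.418) and Pcdha12 (0.370) had a peak in replicate 1, whereas Pcdha4 (0.469) and Pcdha8 (0.453) had one in replicate 2. No alternate Pcdha gene was thus shared between the libraries, and the remaining 8, Pcdha1 to Pcdha3, Pcdha6, Pcdha7 and Pcdha9 to Pcdha11, had no peak. The peaks at Pcdha4, Pcdha12, Pcdhga8 and Pcdhga11 lay within 500 bp of the start of another annotated gene, so they could not be given to the protocadherin alone.

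Pcdhb had the most alternate genes with a peak, and the lowest median signal over them. The median was 0.218 (replicate 1) and 0.286 (replicate 2) in Pcdhb, 0.394 and 0.461 in alternate Pcdha genes, and 0.630 and 0.561 in alternate Pcdhg genes, each over the genes with a peak in that library. In replicate 2 the highest Pcdhb peaks exceeded every alternate Pcdha peak. Pcdhb12 (start 37435621) led the cluster with 0.351 in replicate 1 and 0.501 in replicate 2. Pcdhb4 had 0.188 and 0.541, and Pcdhb7 had 0.248 and 0.278. Pcdhb4 was therefore close to the weakest Pcdhb peak in replicate 1 and was the highest in replicate 2. Pcdhb2 followed with 0.188 and 0.223, and Pcdhb1, the first gene of the cluster, had 0.164 and 0.183. Those last values lie near the 1st percentile of all peaks, which was 0.151 in replicate 1 and 0.167 in replicate 2. Pcdhb3 had a peak in replicate 1 only (0.248). A further 8 genes, Pcdhb6, Pcdhb9, Pcdhb13, Pcdhb14, Pcdhb16, Pcdhb17, Pcdhb19 and Pcdhb21, had one in replicate 2 only, at 0.231 to 0.366. Replicate 2 thus listed 13 Pcdhb promoters and replicate 1 listed 6. The other 8 Pcdhb genes had no peak in either library.

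Where both libraries had a peak, they placed the members in nearly the same order. Across the 11 members the log2 signals had a Pearson r of 0.956 and the signals a Spearman rho of 0.961, given as a description, since the members share the libraries. The median ratio of replicate 2 to replicate 1 was 1.12. Genome-wide, peaks found in both libraries also had a higher median signal in replicate 2 (0.827) than in replicate 1 (0.685). The median signal of the 11 members was 0.738, against 2.32 for the 12671 other protein-coding genes open in both libraries. The members' median was 1.63 over the 4 members of the stricter list, and 0.412 over the 15 members open in replicate 1 or 0.410 over the 24 open in replicate 2. Of the other genes open in both libraries, 11.2% had a mean signal below 0.738. The median over the 11 members leaves out the 46 members without a peak in both libraries.

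By the stricter peak list of each library 4 members were open in both libraries, Pcdhac1, Pcdhac2, Pcdhgc3 and Pcdhgc5, beside 51.9% of all protein-coding genes. Pcdhgc4 was kept in replicate 1, and replicate 2 kept Pcdhga12 and 5 Pcdhb genes. No Pcdhb member was listed in both.

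The lists of bases with a false discovery rate below 0.05 were read next. Every member with a peak in a library also had such bases there, so these counts are not evidence apart from the peaks. At least 1 such base lay within 500 bp of the start in both libraries for 13 members (22.8%), beside 54.5% of all genes. All 5 C-type members were among them, and 8 of the other 52. The numbers of listed bases were 640 in replicate 1 and 922 in replicate 2 at Pcdhac1, 619 and 636 at Pcdhac2, and 616 and 382 at Pcdhgc3. Pcdhgc4 differed most between the libraries, with 790 bases in replicate 1 and 81 in replicate 2. Of the 13 members with a peak in replicate 2 only, Pcdhb6 (9 bases) and Pcdhga11 (32 bases) also had listed bases in replicate 1. None of the 4 members with a peak in replicate 1 only had a listed base in replicate 2. Among the 29 members with no peak, listed bases were found only at Pcdha9 (23) and Pcdha11 (41), both in replicate 1.

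Footprints are short stretches with few cuts inside open sites that can mark a bound protein. No member without a peak in a library had a footprint there, so a division like that of the peaks was built in. Footprints lay within 500 bp of the start in both libraries at 6 members, the 5 C-type members and Pcdhga12, beside 55.5% of all protein-coding genes. Pcdhac2 had 8 footprints in replicate 1 and 3 in replicate 2, Pcdhgc3 had 6 and 4, and Pcdhac1 had 5 and 3. Pcdhgc4 had 10 and 1, and Pcdhgc5 had 1 and 5. The libraries thus differed least at Pcdhac1 and Pcdhgc3 among the C-type genes, and most at Pcdhgc4. Footprints were present at 10 members in replicate 1 and at 12 in replicate 2.

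Other sets of genes were counted beside the members. Non-clustered protocadherins, adhesion genes that each have a promoter of their own outside the clusters, were open in both libraries at 11 of 12 genes, all but Pcdh12, with a median signal of 1.03. Olfactory receptor genes, another large gene family, were open at 20 of 1135 (1.76%). The other protein-coding genes of chromosome 18 were open at 319 of 456 (70.0%). Of 26 genes for regulators and partners of clustered protocadherins, such as CTCF and the cohesin subunits, 25 were open, all but the DNA methyltransferase gene Dnmt3b, which had a peak in replicate 2. These sets differ in CpG content. The median observed to expected CpG ratio was 0.564 in members, 0.106 in olfactory receptor genes and 0.665 in non-clustered protocadherins. It was 0.905 in regulators and partners and 0.630 in other genes of chromosome 18. The part of CpG content in these shares was not tested.

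The members were also set beside other genes of like CpG content. Promoters rich in CpG dinucleotides were open more often genome-wide, and the members spread over the middle of that range. In the second quintile from the bottom, 5 of 13 members and 28.1% of other genes were open in both libraries. In the middle quintile the values were 3 of 23 members and 70.6% of other genes, and in the next one 3 of 19 members and 88.7%. The lowest and highest quintiles held 1 member each, neither of them open in both libraries.

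**Figure D2:**
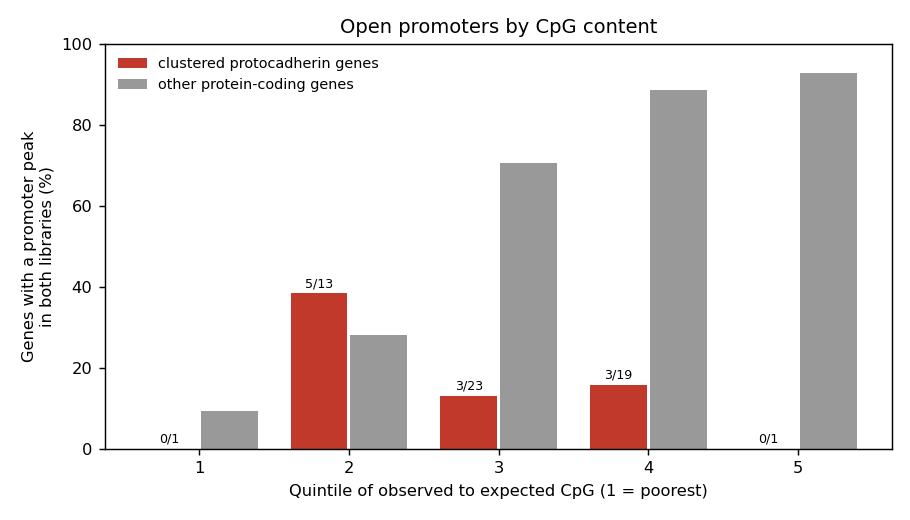
Percentage of genes with a promoter peak in both libraries, by quintile of the observed to expected CpG ratio, for clustered protocadherin genes (red, with counts above the bars) and other protein-coding genes (grey). Other genes rise to 92.9% in the richest quintile, and members reach 3 of 23 and 3 of 19 in quintiles 3 and 4.

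Near-identical copies can keep short reads from being placed, so the share of 32-base stretches that occur once in the assembly was measured in each promoter window. The median was 98.5% for members and 100% for other genes of chromosome 18. It was 78.8% in Pcdha, 100% in Pcdhb and 98.5% in Pcdhg. Windows below 90% numbered 19 of 57 among members, 11 of them among the 14 Pcdha genes, and 42 of 456 among other genes of the chromosome. The median was 100% in the 11 members open in both libraries and 97.2% in the 29 with no peak. The sources used here do not give read lengths, and the part of repeated sequence in the low calling of Pcdha was not tested.

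The place of the highest peak of each member was measured from its exon. Positions are given from the start of the variable exon, negative before it. In Pcdhb these peaks lay around the start, with midpoints from -115.5 to 155.5 bp. Alternate Pcdhg peaks lay there too at Pcdhga3 (-17 bp), Pcdhga8 (-26 bp), Pcdhgb7 (10.5 bp) and Pcdhga11 (-42 bp). The highest peaks of the 4 alternate Pcdha genes lay inside the exon, with midpoints from 457.5 to 544 bp. Pcdha4 had a second, weaker replicate 2 peak (0.366) that overlapped its start. Midpoints at Pcdhac1 were at -42.5 bp (replicate 1) and -12.5 bp (replicate 2), and those at Pcdhac2 at 247.5 and 67.5 bp. Pcdhgc3 (-79.5 and -69.5 bp) and Pcdhgc5 (-172.5 and -152.5 bp) also had peaks on the promoter side. At Pcdhga12 (344 and 330.5 bp) and Pcdhgc4 (301.5 and 270.5 bp) the highest peak lay in the exon in both libraries. The annotated start codon lies 537 bp after the start at Pcdhga12, 454 bp at Pcdhgc4 and 466 bp at Pcdhac2. The midpoints at these genes thus lay before the start codon. It lies 189 bp after the start at Pcdhga3, 187 bp at Pcdhga8, 179 bp at Pcdhgb7 and 210 bp at Pcdhga11.

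**Figure D3:**
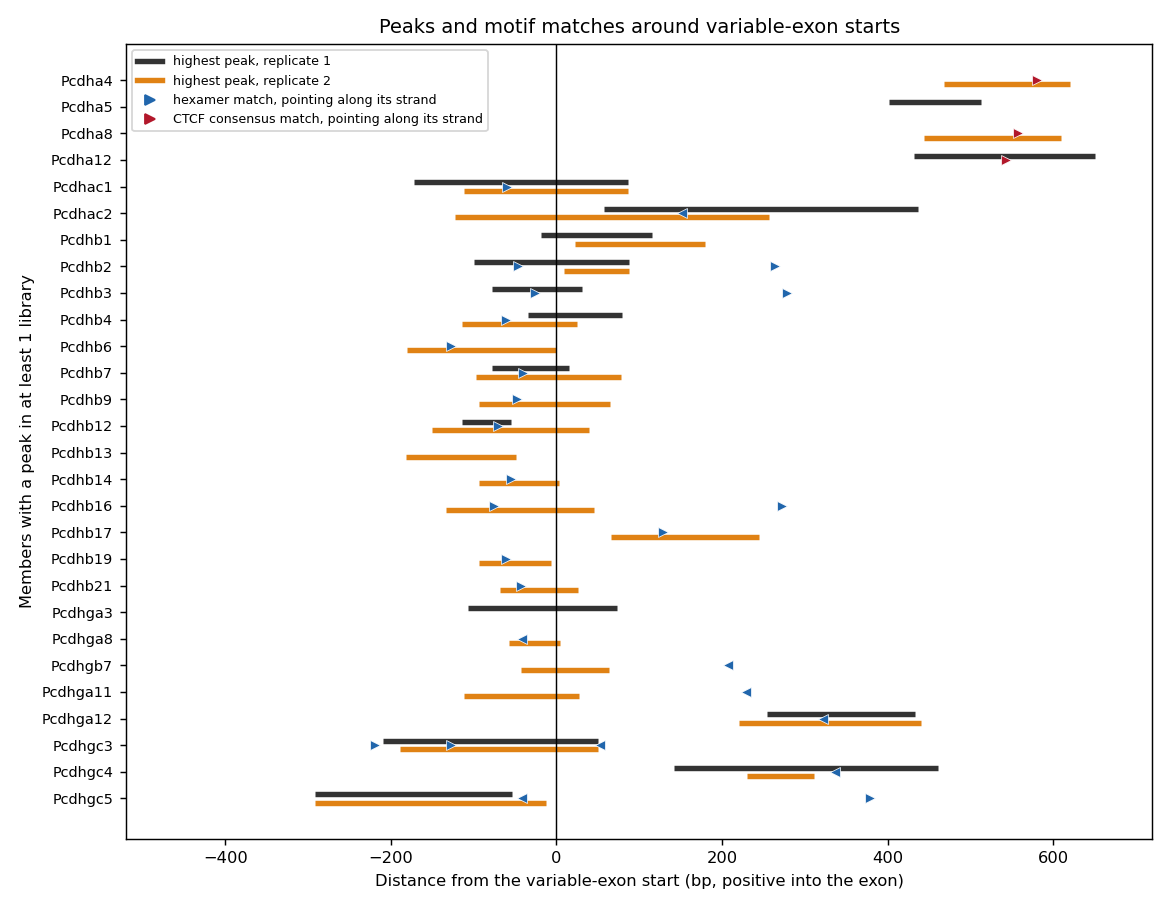
Extent of the highest peak (bars, dark for replicate 1 and orange for replicate 2) and motif matches (triangles pointing along their strand, blue for the hexamer and red for the CTCF consensus) relative to the variable-exon start in bp, for the 28 members with a peak in at least 1 library. Pcdhb peaks sit around the start, many of them over a hexamer match, and the highest peaks of Pcdha4, Pcdha8 and Pcdha12 have midpoints 526.5 to 544 bp inside the exon.

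A short sequence was searched around the starts. The hexamer GGCGCT, which holds the CGCT core of the conserved element, was searched on both strands in the promoter windows and matched in 35 of 57 members, beside 41.4% of all protein-coding genes. By cluster it matched in 20 of 22 Pcdhb, 3 of 14 Pcdha and 12 of 21 Pcdhg windows. In 18 of the 22 Pcdhb genes a match on the gene's own strand lay 25 to 127 bp before the start, at a median of 49.5 bp. A match on the gene strand in the 130 bp before the start was found in 5.51% of all protein-coding genes, in 1 of 14 Pcdha genes (Pcdhac1) and in 1 of 21 Pcdhg genes (Pcdhgc3). The strip of 130 bp was chosen after the positions had been seen. It leaves out gene-strand matches after the annotated start at Pcdhb17 (129 bp) and Pcdhb22 (411 bp). Both lie before the annotated start codons of these genes, which are 364 and 610 bp after the start. Of the 18 Pcdhb genes with such a match, 5 had a peak in replicate 1 and 10 in replicate 2. Among all Pcdhb windows, 4 matches lay inside a peak in replicate 1, which had 6 Pcdhb promoters with a peak, and 10 in replicate 2, which had 13. Pcdhb1, with peaks in both libraries, and Pcdhb13, with a peak in replicate 2, had no match in their windows. The Pcdhb4 peak of replicate 1 and the Pcdhb2 peak of replicate 2 did not cover the matches in theirs. A match is a description of letters, and a window without one lacks only these letters.

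The CTCF consensus was searched in the same windows and then in the exons. It matched in 0 of 57 member windows, and 1.03% of all protein-coding genes had a match, so the count was near the background. The shorter motif AGNNGGCGC, a looser form of part of a CTCF site that overlaps the hexamer by its last letters, matched in 10 of 57 windows, beside 20.9% of all genes. Over the whole variable exons, a search added after the window counts had been seen, the consensus matched once in each of 19 members. The share in exons of other genes was not measured. In Pcdha these were Pcdha1, Pcdha4, Pcdha6, Pcdha7, Pcdha8 and Pcdha12, all on the gene strand and 543 to 587 bp after the start. In Pcdhb they were 13 genes, all on the opposite strand and 2277 to 2816 bp after the start, and in Pcdhg there was none.

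Few of the exonic consensus matches were open. The matches of Pcdha4 and Pcdha8 lay in the replicate 2 peaks of those exons. That of Pcdha12 lay in its replicate 1 peak and was overlapped, by at least 1 bp, by a replicate 1 footprint. Those peaks thus covered a consensus match at all 3 of these genes, and the peak of Pcdha5 did not. The Pcdha5 peak did hold a match of the shorter motif AGNNGGCGC on the gene strand, overlapped by a replicate 1 footprint. The peaks of Pcdha4, Pcdha8 and Pcdha12 with a consensus match each held a gene-strand match of that motif too. Pcdha5 was therefore set apart by the full consensus only, and whether its match is a CTCF site was not tested. None of the 13 Pcdhb matches lay in a peak of either library. Across the whole interval described next, 23 matches were found, 17.5 per Mb, against 4.96 per Mb in all assembled bases. Of the 23, 13.0% lay in a peak in replicate 1 and 17.4% in replicate 2. Genome-wide 33.3% and 44.0% of 13119 matches did.

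The strongest open sites around the clusters lay outside the promoters of their genes. The interval from 300 kb before the first variable exon to 100 kb after the last constant exon (36630184 to 37941873) held 78 peaks in replicate 1 and 66 in replicate 2. That is 5.95 and 5.03 peaks per 100 kb, whereas the genome held 3.74 and 4.92. Replicate 2 had an overlapping peak for 56.4% of the replicate 1 peaks, and replicate 1 for 65.2% of the replicate 2 peaks. Genome-wide these shares were 81.6% and 62.0%. Peaks of the interval without a counterpart were weak, with medians of 0.427 (replicate 1) and 0.421 (replicate 2), and peaks with one had medians of 1.33 and 1.52. Merged over the libraries there were 96 sites, of which 43 were present in both. Of these, 12 lay in member windows, 14 at starts of other genes and 17 elsewhere.

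**Figure D4:**
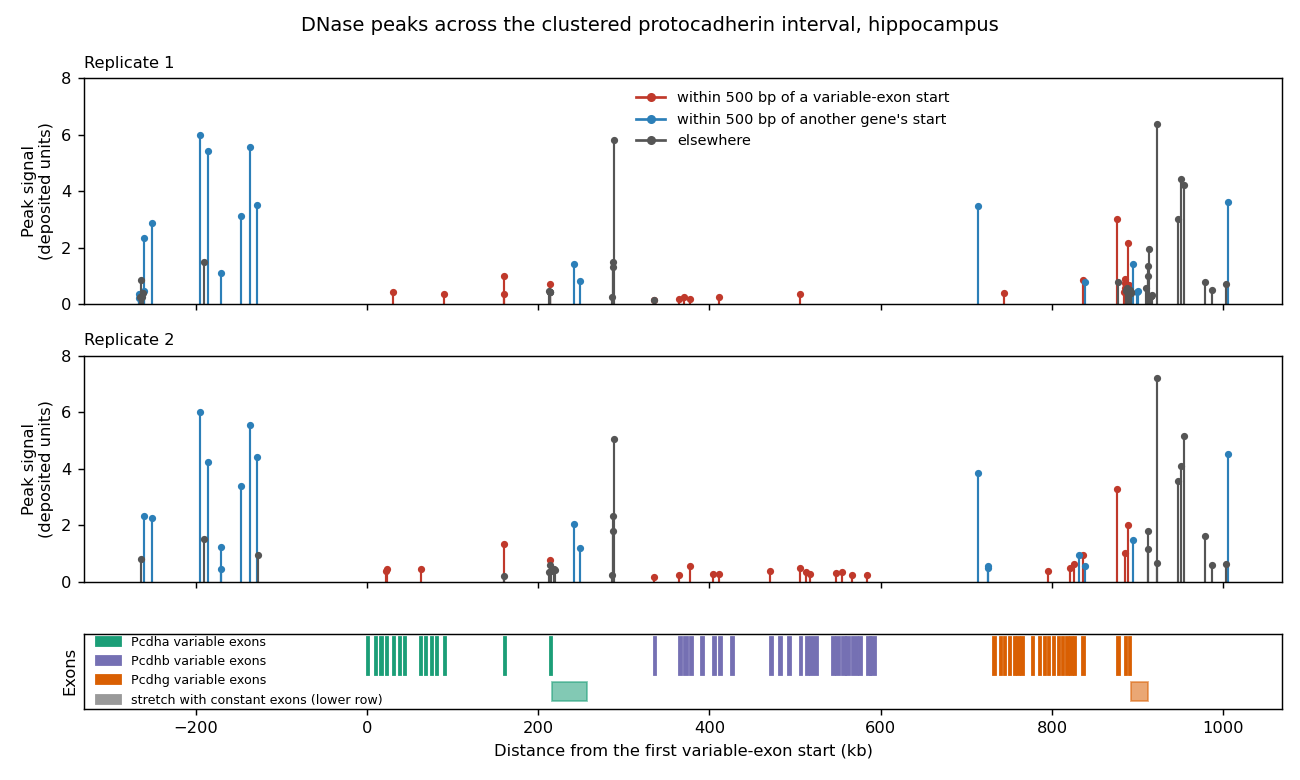
Signal of every peak (deposited units) against the distance of its midpoint from the first variable-exon start in kb, for replicate 1 (top) and replicate 2 (middle), with the variable exons and the stretches holding the constant exons (bottom). Most member peaks (red) are low, with the highest at Pcdhgc3 (3.03 and 3.28), and sites without a gene start (dark grey) reach 5.81 and 5.07 between Pcdha and Pcdhb and 6.40 and 7.22 beyond Pcdhg.

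A compact group of open sites stood in the gap between Pcdha and Pcdhb, about 30 kb past the last Pcdha constant exon. The highest, at 37218201 to 37218460, reached 5.81 (replicate 1) and 5.07 (replicate 2; mean 5.44 ± 0.53, SD, n = 2), above every member promoter. Beside it lay sites at 37217361 to 37217600 (1.48 and 2.32), at 37217841 to 37218120 (1.31 and 1.80) and at 37216674 to 37216874 (0.242 and 0.246). All 4 were present in both libraries within 1787 bp, and no other peak lay in the 76.8 kb of the gap. The site at 37217361 held a CTCF consensus match, on the minus strand and overlapped by a footprint in both libraries. The 6 matches in Pcdha exons lie on the plus strand, so they and this one point towards each other. An enhancer that acts on Pcdha promoters is known downstream of the constant exons. Whether these sites are that enhancer was not tested. Read-through transcript records span the gap, so the annotation places all 4 sites in introns.

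Inside the Pcdha constant region, 2 further sites were shared. They lay at 37172281 to 37172520 (1.43 and 2.04) and at 37178341 to 37178720 (0.812 and 1.21), at starts of the transcripts Gm38097 and Gm10544. Both had footprints in both libraries.

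Downstream of Pcdhg, open sites lay in introns of Diaph1, the gene of an actin-nucleating formin. The site at 37852141 to 37852400, 10.3 kb past the last constant exon, had the highest signal of the interval, 6.40 in replicate 1 and 7.22 in replicate 2 (mean 6.81 ± 0.58, SD, n = 2). A group of 3 sites followed 35.3 to 41.7 kb past that exon. They had signals of 3.04 and 3.59 (37877221 to 37877580), 4.43 and 4.10 (37880181 to 37880460), and 4.24 and 5.17 (37883561 to 37883780). The last of these held a CTCF consensus match, again on the minus strand and overlapped by a footprint in both libraries. Just past the last Pcdhg exon lay 2 intergenic sites, at 37842084 to 37842193 (1.35 and 1.16) and at 37842661 to 37842920 (1.94 and 1.81). A control region for Pcdhb and Pcdhg is known downstream of Pcdhg, and whether these sites belong to it was not tested. The sites in the gap and in Diaph1 were singled out after their values had been seen.

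Promoters of some unrelated genes in the interval also had signals above those of all members, and others did not, such as Sra1 (2.33 and 2.31) and Wdr55 (1.12 and 1.23). The 5 highest shared sites outside the member windows were the Diaph1 site at 37852141, the promoters of Tmco6 and Zmat2, the gap site at 37218201 and the promoter of Ik and Ndufa2. Tmco6 had 5.98 in replicate 1 and 6.01 in replicate 2. Zmat2, a splicing factor gene, had 5.56 and 5.57, and the shared promoter of Ik and Ndufa2, a subunit gene of respiratory complex I, had 5.43 and 4.24. Taf7, a gene of the general transcription machinery that lies between Pcdhb and Pcdhg, had 3.47 and 3.85. Pcdhgc3, the highest member, was thus below Taf7 in both libraries.

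The libraries differed in which stretches of the clusters they listed as open. The stretches named here include introns. Replicate 1 had 19 peaks in the stretch of the Pcdhg variable exons and 6 in that of the Pcdhg constant exons. Replicate 2 had 9 and 1. In the constant stretch, the replicate 1 peaks at 37839961 and 37841481 lay in exons shared by the Pcdhg genes. The others lay in a Pcdhgc5 exon or at starts of Gm38182 and Gm29994. The replicate 2 peak lay at the start of Gm38182. From 500 bp before Pcdhgc4 to the end of Pcdhg there were 20 peaks in replicate 1, of which 3 were found in replicate 2, and 3 peaks in replicate 2. Of the 20, 11 lay in exons away from any start. Over the Pcdhb genes the numbers were the other way round, with 7 peaks in replicate 1 and 13 in replicate 2.

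The bases with a false discovery rate below 0.05, which are not evidence apart from the peaks, showed the same division. They numbered 92.9 per kb in replicate 1 and 13.4 per kb in replicate 2 over the stretch of the Pcdhg constant exons, introns included. Over the stretch of the Pcdhg variable exons there were 31.6 and 12.2 per kb. Over the Pcdhb genes there were 3.11 and 8.12 per kb. All assembled bases had 11.1 and 15.4 per kb. The Pcdhb genes were thus below the genome level in both libraries, and Pcdhg was above it in replicate 1. The gap between Pcdha and Pcdhb, with 23.7 and 25.2 per kb, and the downstream flank, with 52.8 and 44.7 per kb, differed less between the libraries. The cause of the difference was not tested.

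**Figure D5:**
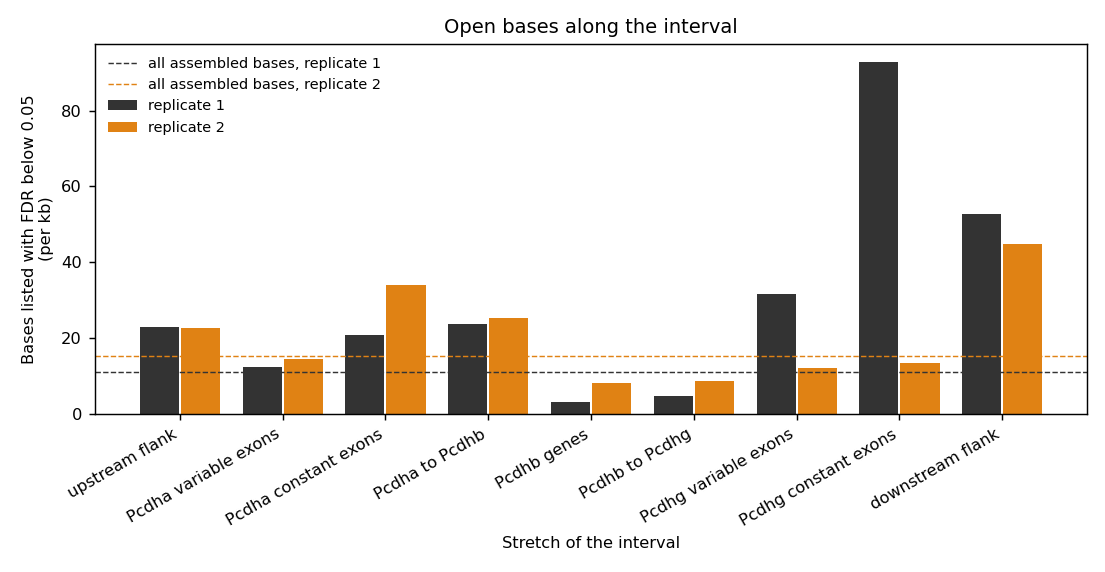
Bases listed with a false discovery rate below 0.05 per kb in each stretch of the interval, for replicate 1 (dark) and replicate 2 (orange), with dashed lines at the level over all assembled bases. The stretch of the Pcdhg constant exons, introns included, stands at 92.9 in replicate 1 and 13.4 in replicate 2. The Pcdhb genes lie below both dashed lines.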

How the data were processed

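The authors deposited, for each library, 2 peak lists, footprints and bases with a false discovery rate, made per the deposited notes from that library's own mm10 alignments. The sources used here do not give the aligner, the peak caller or the footprint tool. The deposited peak value is a signal of unstated scale, in steps of 0.00606 in replicate 1 and 0.00795 in replicate 2. The false discovery rates deposited by the authors, a p-value type unit, list only bases below 0.05, and the footprints carry the threshold 0.01. Read depth is not stated in these files, so no counting interval is given.

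The variable exon was the longest coding exon of a gene. All protein-coding genes of GENCODE M21 on chromosomes 1 to 19, X and Y formed the background, with 500 bp on either side of every protein-coding transcript start. Motif and base backgrounds used the gene record's 5' end. With 1 group no test was made. Named were, per cluster, the 5 members with the highest mean signal and the 3 with the lowest among those with peaks in both libraries, all C-type members, every member with a peak in 1 library or none (by range where over 10), the 5 highest shared sites elsewhere and the 3 non-member promoters with the highest peaks. Taf7, Sra1, Wdr55 and Pcdhgb8 were added after their values had been seen. Members and lists were chosen with earlier results of these data known. Python 3.11.15, numpy 2.4.6, pandas 2.3.3, pysam 0.24.0, scipy 1.17.1 and matplotlib 3.10.9 were used, and the functions were tested on simulated data. Alternatives were the stricter list, wider windows, other starts, peak midpoints, other overlaps, rescaled signal, other motifs and each library left out.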

Additional observations from a re-analysis of the deposited data

How the results depend on the processing

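The count of 11 members open in both libraries and the counts per cluster were the same with a window of 2000 bp, the gene record's 5' end, every transcript start, the start codon or peak midpoints. With the stricter list the counts were 4 members, 0 in Pcdhb and 2 in Pcdhg, and the median signal was 1.63 over those 4. With a single library, the counts ran from 15 to 24 for all members, 4 to 4 in Pcdha, 6 to 13 in Pcdhb and 5 to 7 in Pcdhg, the median signal from 0.410 to 0.412, and members with footprints from 10 to 12. These single-library values count members open in that library. Divided by each library's median over shared peaks, the median signal was 0.983 on that scale. Of the stricter peaks, 27 of 45 in replicate 1 and 27 of 40 in replicate 2 were found in the other library. Members with a motif numbered 10 with AGNNGGCGC, 35 with GGCGCT, 8 for the CTCF consensus within 2000 bp and 19 over the whole variable exon, the last added after seeing the data. All 15 recomputed signals of single members were unchanged, since the same highest peaks were read again. Members that lost a peak under an alternative were not recomputed, so this is no measure of robustness. The causes of the changes were not tested beyond the smaller lists and larger windows themselves. No paired analysis was possible because the labels give 1 group, so that no groups share replicate numbers. The precision of every value is limited by 2 libraries of unstated depth.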
